A study of Mus musculus with 32 samples.

Results

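The late disease-associated microglia (DAM) effector genes were followed as a set of 10 genes, *Spp1*, *Igf1*, *Dkk2*, *Gpnmb*, *Itgax*, *Cd9*, *Cd63*, *Ank*, *Ch25h* and *Cst7*, in SOD1G93A mice that carried or lacked the immune checkpoint receptor LAG-3. Members were chosen by name, as the rows of the 3 deposited count tables whose Ensembl identifiers map to these mouse symbols. All 10 were found in each table, among 74021 genes in the table of LAG-3-sorted microglia, 74016 in the table of genotype and stage and 74021 in the spinal cord table, and all 10 passed the filter on low counts in each. SOD1G93A mice express a human mutant SOD1 transgene and model amyotrophic lateral sclerosis (ALS). The LAG-3 allele was a targeted disruption in every cell of the animal, not only in microglia. On GRCm39 (GENCODE vM39) the genes lie as follows: *Spp1* at chr5:104582165-104589235, *Igf1* at chr10:87693642-87772904, *Dkk2* at chr3:131790336-131886065, *Gpnmb* at chr6:49013426-49047863, *Itgax* at chr7:127728668-127749829, *Cd9* at chr6:125437210-125471778, *Cd63* at chr10:128731528-128748709, *Ank* at chr15:27466558-27598709, *Ch25h* at chr19:34451178-34452564 and *Cst7* at chr2:150412284-150420864. All are protein-coding, and the values count reads over their transcripts.

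The 3 tables held 14, 12 and 6 libraries. The sorted experiment held 4 libraries of wild-type (WT) microglia, from mice without the transgene, and 5 libraries per fraction of microglia with low or high surface LAG-3 (LAG-3-low, LAG-3-high) from P140 SOD1G93A mice (P, postnatal day); no age was labelled for the WT mice. The stage experiment held SOD1G93A microglia of both LAG-3 genotypes, +/+ and -/-, at P120 and P140, in 3 libraries per group, and the cord experiment held whole lumbar spinal cord of both genotypes at P140, again in 3 libraries per group. Every group except WT thus carried the SOD1G93A transgene, including the LAG-3+/+ controls. All microglia were CD11b+/CD45int cells sorted from lumbar spinal cord. Whether the libraries came from separate animals is not stated in the labels, so p-values measure the spread between these libraries.

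DAM are microglia that, near dying neurons or protein deposits, lower their homeostatic genes and raise genes for lipid handling, lysosomes and phagocytosis. The change is usually described in steps, and the later step depends on the receptor TREM2. The genes of the set belong to that later step or to the same effector program, and they encode products of different kinds: secreted ligands (*Spp1*, osteopontin; *Igf1*, insulin-like growth factor 1; *Dkk2*, a modulator of Wnt signaling), surface and endolysosomal membrane proteins (*Gpnmb*, a lysosomal and surface glycoprotein; *Itgax*, the integrin chain CD11c; the tetraspanins *Cd9* and *Cd63*), a membrane transporter that exports pyrophosphate (*Ank*), an enzyme that makes 25-hydroxycholesterol (*Ch25h*) and an inhibitor of lysosomal cysteine cathepsins (*Cst7*, cystatin F).

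The promoter table of RefSeq (build GRCm38.p6) held 300-base windows, from 250 bases before to 50 bases after a start site, for all 10 genes, with 11 windows in all because *Spp1* has 2. Each window was searched on both strands for the letters CACGTG and CATGTG (cores bound by MiT/TFE factors), TGANTCA (bound by AP-1 factors), GAGGAAG (bound by ETS factors of the PU.1 type) and TATAAA. The letters TGANTCA were in 4 of the 11 windows, those of *Igf1*, *Gpnmb*, *Itgax* and *Cst7*, and in 7.81% of the 32851 windows of all genes. GAGGAAG was in 3 (13.6% of all windows), TATAAA in 3 (13.6%), CATGTG in 1 (14.2%) and CACGTG in 0 (7.15%). The 4 windows with TGANTCA are shown. Their genes were among the 6 members called in LAG-3-low against WT microglia and the 5 called in the cord. In LAG-3-high against WT microglia all 10 members were called. Other comparisons did not hold all 4. Between the LAG-3-high and LAG-3-low fractions *Gpnmb* and *Cst7* were called and *Igf1* and *Itgax* were not. From P120 to P140 in LAG-3+/+ microglia only *Cst7* of these genes was called. Between the genotypes at P140 no member was called by edgeR. A link between the letters and the calls was not tested. The match is a description of the letters and not of a bound site. Each stretch runs from 100 bases before to 30 bases after the start site on the plus strand, 5′ to 3′, with capitals for the searched motifs: TGANTCA in each stretch and GAGGAAG in that of *Igf1*.
*Igf1*, chr10:87861011-87861140: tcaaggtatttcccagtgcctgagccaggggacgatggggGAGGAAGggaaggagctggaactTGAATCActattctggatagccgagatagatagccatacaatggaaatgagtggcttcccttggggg
*Gpnmb*, chr6:49036418-49036547: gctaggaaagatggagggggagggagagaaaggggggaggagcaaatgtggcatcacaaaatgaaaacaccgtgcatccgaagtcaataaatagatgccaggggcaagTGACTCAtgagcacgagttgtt
*Itgax*, chr7:128129450-128129579: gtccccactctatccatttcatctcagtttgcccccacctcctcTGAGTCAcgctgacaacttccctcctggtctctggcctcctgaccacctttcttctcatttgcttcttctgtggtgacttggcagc
*Cst7*, chr2:150570315-150570444: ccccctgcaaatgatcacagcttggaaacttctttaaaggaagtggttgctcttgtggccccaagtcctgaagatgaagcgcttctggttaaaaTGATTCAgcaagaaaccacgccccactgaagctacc

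Levels are given as CPM, the estimated counts relative to library totals that were scaled by edgeR's TMM method, and per length as FPKM (CPM per kilobase of the canonical transcript) where genes are compared with each other. Totals per library were 9403475 to 22850586 counts in the sorted, 23981406 to 49512632 in the stage and 19430102 to 26994524 in the cord table. *Lag3* itself followed the labels of sort and genotype: its mean over the sort was 4.60 CPM (WT), 43.4 CPM (LAG-3-low) and 169 CPM (LAG-3-high). It was 59.3 and 0.291 CPM in LAG-3+/+ and LAG-3-/- microglia at P120, 26.0 and 0.172 CPM at P140, and 59.7 and 5.60 CPM in the cord. In LAG-3+/+ microglia each P140 library was below each P120 library for *Lag3*, as for 25.4% of all genes tested. That change was not called (log2 fold change -1.19, edgeR adjusted p = 0.136). The summed level of 9 microglial genes (*Aif1*, *Csf1r*, *C1qa* and others) was 23819 to 79919 CPM in the microglia libraries and 1346 to 2315 CPM in the cord. The summed level of 10 neutrophil genes (*S100a8*, *S100a9*, *Camp* and others) ranged over 5942 to 70333 CPM in WT and 22576 to 65015 CPM in the LAG-3-low fraction, but over 0.141 to 4.85 CPM in the LAG-3-high fraction. For 5 monocyte genes the sums were 1550 to 4429 CPM (LAG-3-low) and 0.0666 to 6.27 CPM (LAG-3-high). In the stage table the neutrophil genes summed to 1660 to 2514 CPM in P120 LAG-3+/+, at most 1.02 CPM in P120 LAG-3-/-, and 0.269 to 3442 and 1.02 to 4498 CPM in the LAG-3+/+ and LAG-3-/- libraries at P140. The part of these cells in the results below was not tested.

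Some libraries stood apart in the set itself. Replicate 2 of the P120 LAG-3-/- microglia was the highest of its group in 10 of 10 members, replicate 1 of the LAG-3-/- cord was the highest in 10 of 10, replicate 2 of the P140 LAG-3+/+ microglia was the highest in 9, replicate 2 of each cord genotype was the lowest in 9, and replicate 4 of the LAG-3-low microglia was the lowest in 7. For 4 more libraries, all of the stage experiment, 8 members were the highest or the lowest of their group, and replicate 4 of the WT microglia had 0 counts for 5 members. A count of 0 allows a level of up to 0.153 to 0.261 CPM in a WT library (3 counts, counting error only).

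The first comparison asked how the effector genes differ between microglia of SOD1G93A mice with little LAG-3 on their surface and WT microglia. Of the 10 genes, 6 were higher in the LAG-3-low fraction, against 10.9% of the 16508 genes tested that were called higher: *Ch25h*, *Cst7*, *Spp1*, *Itgax*, *Gpnmb* and *Igf1*, with log2 fold changes between 5.19 and 8.85. The tetraspanins *Cd9* and *Cd63*, *Ank* and *Dkk2* were not called by edgeR, while DESeq2 called *Ank* and *Dkk2* higher (log2 fold changes 2.91 and 2.63, DESeq2 adjusted p = 0.0533 and 0.0395). A gene was called at an adjusted p under 0.1 (quasi-likelihood F-test of edgeR, adjusted by Benjamini-Hochberg across the whole table) together with a log2 fold change beyond 1 in either direction, in this and the other comparisons of the sorted and cord tables. The median log2 fold change of the 10 genes was 5.28, beside 0.04 for all genes tested.

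**Figure D1:**
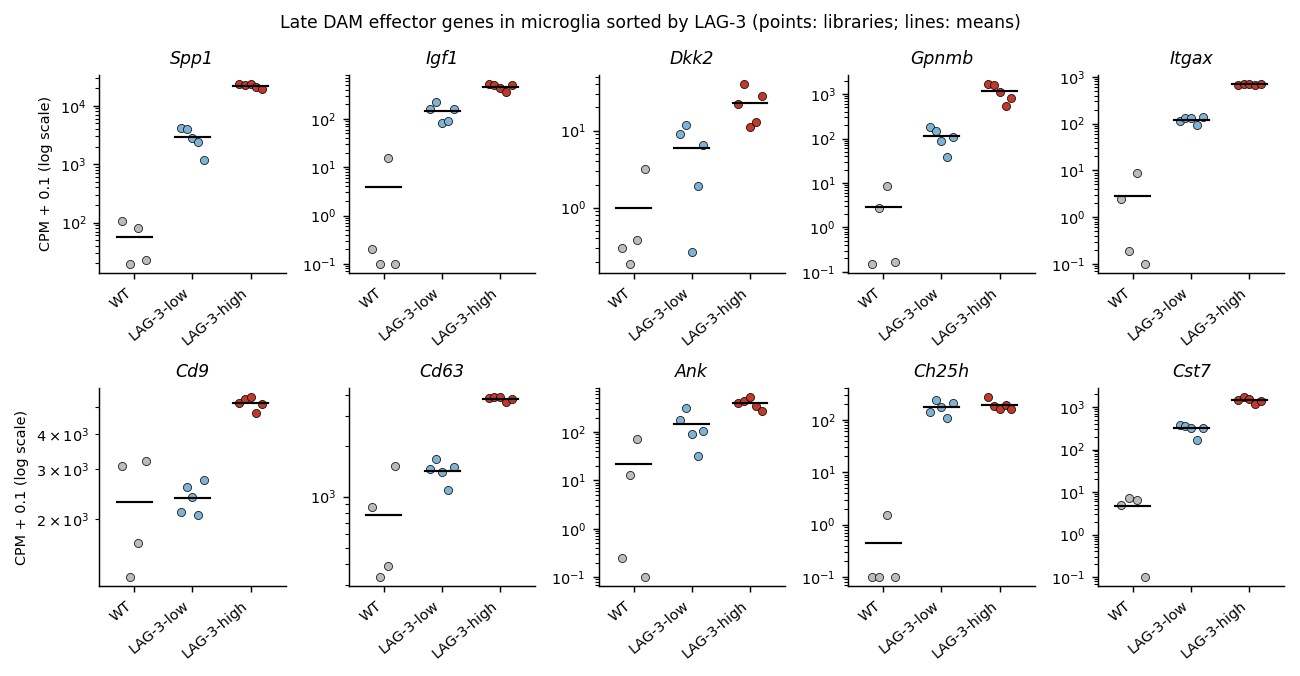
Level of each gene in microglia sorted by LAG-3, in CPM plus 0.1 on a log axis; points are libraries (4 WT, 5 LAG-3-low, 5 LAG-3-high) and lines are group means. All LAG-3-high libraries lie above all WT libraries for each gene, whereas *Ch25h* overlaps between both SOD1G93A fractions and *Cd9* between WT and LAG-3-low microglia.

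Among the secreted ligands, *Spp1* encodes osteopontin, a matrix protein and cytokine that binds integrins and CD44. Its level was 106, 19.6, 82.0 and 22.3 CPM in the WT libraries and 4233, 4030, 2795, 2433 and 1164 CPM in the LAG-3-low libraries. The groups did not overlap, as for 9.78% of all genes tested that lay above WT in each library, and the log2 fold change was 5.67 (SE 0.58, edgeR adjusted p = 6.01e-05).
*Igf1*, a growth factor that supports neurons and myelination, was at 0.102, 0, 15.3 and 0 CPM in WT and at 160, 222, 81.1, 91.8 and 160 CPM in the LAG-3-low fraction. All LAG-3-low libraries were above the 1 WT library with a level over 1 CPM, and the log2 fold change was 5.19 (SE 1.32, edgeR adjusted p = 0.0169). Without that library, WT replicate 3, no WT level was above 0.102 CPM, and the fitted value of 11.53 (edgeR adjusted p = 8.22e-07) depends on the prior count. *Dkk2* binds the LRP5 and LRP6 co-receptors of Wnt. Its mean CPM was the lowest of the members in LAG-3-low microglia, whereas in WT that of *Ch25h* was lower (0.352 against 0.903 CPM). *Dkk2* was at 0.0869 to 3.04 CPM in WT and 0.164 to 11.7 CPM in LAG-3-low microglia. Its groups overlapped (log2 fold change 2.67, SE 1.14, edgeR adjusted p = 0.123), and without WT replicate 4, the highest WT library, the log2 fold change was 4.83 and the gene was called (edgeR adjusted p = 0.0159).

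Among the membrane proteins, *Gpnmb* was at 0.0509 to 8.23 CPM in WT and 37.7 to 181 CPM in LAG-3-low microglia (log2 fold change 5.36, SE 1.06, edgeR adjusted p = 0.00486). *Itgax*, whose product CD11c pairs with the integrin chain CD18, was at 0 to 8.79 CPM in WT and 93.3 to 139 CPM in LAG-3-low microglia (log2 fold change 5.42, SE 0.98, edgeR adjusted p = 0.00303). Neither gene's groups overlapped. The tetraspanins organize other membrane proteins into microdomains and are abundant in exosomes and lysosomes, and both were already high in WT microglia. *Cd9* was at 3093, 1242, 1643 and 3220 CPM in WT and at 2117, 2588, 2387, 2070 and 2739 CPM in LAG-3-low microglia. The WT libraries thus lay on both sides of the LAG-3-low libraries, and the log2 fold change was 0.05 (SE 0.24, edgeR adjusted p = 0.911). *Cd63* was at 865, 335, 389 and 1522 CPM in WT and at 1462, 1673, 1393, 1101 and 1493 CPM in LAG-3-low microglia. It passed the adjusted p but not the minimum fold change (log2 fold change 0.87, SE 0.34, edgeR adjusted p = 0.0954), and without WT replicate 4, the highest WT library, it was called (1.43, edgeR adjusted p = 0.00395).

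*Ch25h* had the largest fold change of the set. Its product converts cholesterol to 25-hydroxycholesterol, a signaling oxysterol. It had 0 counts in 3 of the 4 WT libraries and 1.41 CPM in the other, and 141, 234, 172, 110 and 211 CPM in the LAG-3-low libraries (log2 fold change 8.85, SE 1.04, edgeR adjusted p = 0.000174). The library with counts was WT replicate 3, and without it all WT libraries were at 0 and the fitted value of 14.58 (edgeR adjusted p = 4.39e-07) is no measured fold. *Cst7* was at 4.83, 7.22, 6.31 and 0 CPM in WT and at 385, 361, 326, 167 and 328 CPM in LAG-3-low microglia (log2 fold change 6.10, SE 0.82, edgeR adjusted p = 0.000387). For both genes the lowest LAG-3-low library was replicate 4, and it was still above each WT library. *Ank* was at 0.153, 12.9, 72.1 and 0 CPM in WT and at 178, 320, 93, 32.2 and 104 CPM in LAG-3-low microglia. The groups overlapped through WT replicate 3 (log2 fold change 2.77, SE 1.27, edgeR adjusted p = 0.150), and without that library the log2 fold change was 5.10 and the gene was called (edgeR adjusted p = 0.0215).

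In LAG-3-high microglia all 10 genes were higher than in WT microglia, against 12.1% of all genes tested, and no LAG-3-high library overlapped a WT library for any of them (12.4% of all genes tested lay above in each library). The log2 fold changes ran from 1.17 for *Cd9* (SE 0.24, edgeR adjusted p = 0.00450) and 2.29 for *Cd63* (SE 0.36, edgeR adjusted p = 0.000703) to 8.71 for *Gpnmb* (SE 1.24, edgeR adjusted p = 0.000300) and 9.01 for *Ch25h* (SE 1.05, edgeR adjusted p = 6.33e-05). *Ank* and *Dkk2*, which were not called in the LAG-3-low fraction, reached 277 to 536 CPM and 11.2 to 40.8 CPM here (log2 fold changes 4.23 and 4.66, edgeR adjusted p = 0.0408 and 0.0181). The call of *Ank* was lost with no filter on low counts (edgeR adjusted p = 0.152) and when only the 2 groups compared were fitted (edgeR adjusted p = 0.103). *Cd9* fell under the minimum fold change without WT replicate 2 (log2 fold change 0.98, edgeR adjusted p = 0.00262). Without WT replicate 3, the fitted values of *Igf1* and *Ch25h* went from 6.90 to 13.24 and from 9.01 to 14.75, again set by the prior count, and that of *Ank* to 6.57.

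The direct comparison of the 2 SOD1G93A fractions asked which of these genes separate LAG-3-high from LAG-3-low microglia of the same disease stage. All 10 log2 fold changes were above 0 (that of *Ch25h* not under 2 other scalings), with a median of 1.85 beside -0.02 for all genes tested, and 5 genes were called higher, *Gpnmb*, *Spp1*, *Cst7*, *Cd63* and *Cd9*, against 0.818% of all genes tested. Both fractions were gated from SOD1G93A microglia, and the labels do not say whether equal replicate numbers share an animal. The main fit took the libraries as independent. With a block for the replicate number fewer members were called (given below), and 179 of all genes against 576 in the main fit. *Spp1* rose from the LAG-3-low values above to 23967, 22353, 23461, 20918 and 19334 CPM (log2 fold change 2.91, SE 0.46, edgeR adjusted p = 0.00321). *Gpnmb* was at 1732, 1568, 1108, 530 and 801 CPM in the LAG-3-high libraries (log2 fold change 3.35, SE 0.87, edgeR adjusted p = 0.0522) and *Cst7* at 1483, 1731, 1528, 1156 and 1380 CPM (log2 fold change 2.22, SE 0.61, edgeR adjusted p = 0.0732). All LAG-3-high libraries were above all LAG-3-low libraries for these 3 genes. The tetraspanins, which had not differed by the call between LAG-3-low and WT microglia, were higher in the LAG-3-high fraction: *Cd9* at 4769 to 5429 CPM (log2 fold change 1.12, SE 0.23, edgeR adjusted p = 0.0140) and *Cd63* at 3628 to 3885 CPM (log2 fold change 1.41, SE 0.32, edgeR adjusted p = 0.0275).

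*Itgax* and *Igf1* were not called between the fractions although their libraries did not overlap. *Itgax* was at 677, 722, 701, 682 and 701 CPM in LAG-3-high microglia against 93.3 to 139 CPM in LAG-3-low microglia (log2 fold change 2.52, SE 0.77, edgeR adjusted p = 0.115). *Igf1* was at 541, 507, 430, 359 and 496 CPM against 81.1 to 222 CPM (log2 fold change 1.71, SE 1.02, edgeR adjusted p = 0.592). The share of all genes tested with each LAG-3-high library above each LAG-3-low library was 8.95%. The error in this fit is shared with the WT libraries, in which *Itgax* ranged from 0 to 8.79 CPM and *Igf1* from 0 to 15.3 CPM. When only the 2 SOD1G93A fractions were fitted, 8 members were called, with *Itgax*, *Igf1* and *Ank* added (edgeR adjusted p = 2.29e-08, 0.000636 and 0.0599). That fit called 1450 genes over the whole table, against 576 in the main fit.

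*Ch25h* was the exception in the other direction. At 273, 182, 162, 194 and 160 CPM in LAG-3-high microglia it overlapped the LAG-3-low range of 110 to 234 CPM, with a log2 fold change of 0.16 (SE 0.65, edgeR adjusted p = 0.987). Its direction was the opposite under 2 other scalings of the libraries, by library totals (-0.21) and by the 9 microglial genes (-0.80). *Dkk2* and *Ank* overlapped between the fractions, with log2 fold changes of 1.99 (SE 1.01, edgeR adjusted p = 0.477) and 1.45 (SE 1.11, edgeR adjusted p = 0.733). Where the libraries were scaled to the 9 microglial genes, whose sum was 23819 to 32435 CPM in LAG-3-low and 48121 to 55848 CPM in LAG-3-high libraries, all genes tested moved by a median of -0.95 and 2 members stayed called, *Spp1* and *Gpnmb*. In the main fit 4 of these 9 genes were called higher and none lower, with a median log2 fold change of 1.01. *Cst7* lost its call without any 1 of the 10 SOD1G93A libraries (edgeR adjusted p = 0.119 to 0.201). *Gpnmb* lost its call without any 1 of 7 of them, LAG-3-low replicates 2 to 5 and LAG-3-high replicates 1 to 3 (edgeR adjusted p = 0.102 to 0.144), so that 3 members remained called. *Itgax* was called without WT replicate 2, 3 or 4 and *Igf1* without WT replicate 3.

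The order of the members per length also differed between the groups. In WT microglia *Cd9* led with 1809 ± 790 FPKM (SD, n = 4), followed by *Cd63* with 563 ± 398 FPKM. Their ranges over the libraries overlapped, although *Cd9* was the higher in each of the 4 libraries. *Spp1* came next with 25.8 ± 19.4 FPKM, and the other 7 members were at 4.43 FPKM or lower, with ranges that overlapped those of their neighbours in the order. In LAG-3-low microglia *Cd9*, *Spp1* and *Cd63* were at 1873 ± 229, 1315 ± 563 and 1031 ± 150.5 FPKM (SD, n = 5), and the ranges of neighbours among them overlapped. In LAG-3-high microglia *Spp1* was first with 9873 ± 851 FPKM, above *Cd9* (4060 ± 202), *Cd63* (2748 ± 74.9) and *Cst7* (1404 ± 203) in each library, and each of these was above the next. *Dkk2* was last by its mean in each group, with 6.20 ± 3.26 FPKM in LAG-3-high microglia. In WT microglia *Ch25h* was above it in only 1 of the 4 libraries. The share of *Spp1* in the summed CPM of the 10 members was 0.469 to 3.68% (WT), 18.0 to 47.1% (LAG-3-low) and 60.3 to 64.2% (LAG-3-high). The lowest LAG-3-low share was in replicate 5, where *Spp1* was at 1164 CPM.

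The genes whose pattern over the 14 sorted libraries was most like the mean of the standardized members, among 8896 genes of at least 10 CPM on average, were *Anxa5*, *Ctsd*, *Pld3*, *Dpp7* and *Fabp3* (Pearson r = 0.987, 0.984, 0.984, 0.982 and 0.982). *Ctsd*, *Pld3* and *Dpp7* encode lysosomal enzymes. Of the members, *Spp1* was closest to the mean (r = 0.984) and *Cd9* farthest (r = 0.711). These libraries share 3 groups and their scaling, so the correlations describe a pattern and were not tested.

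**Figure D2:**
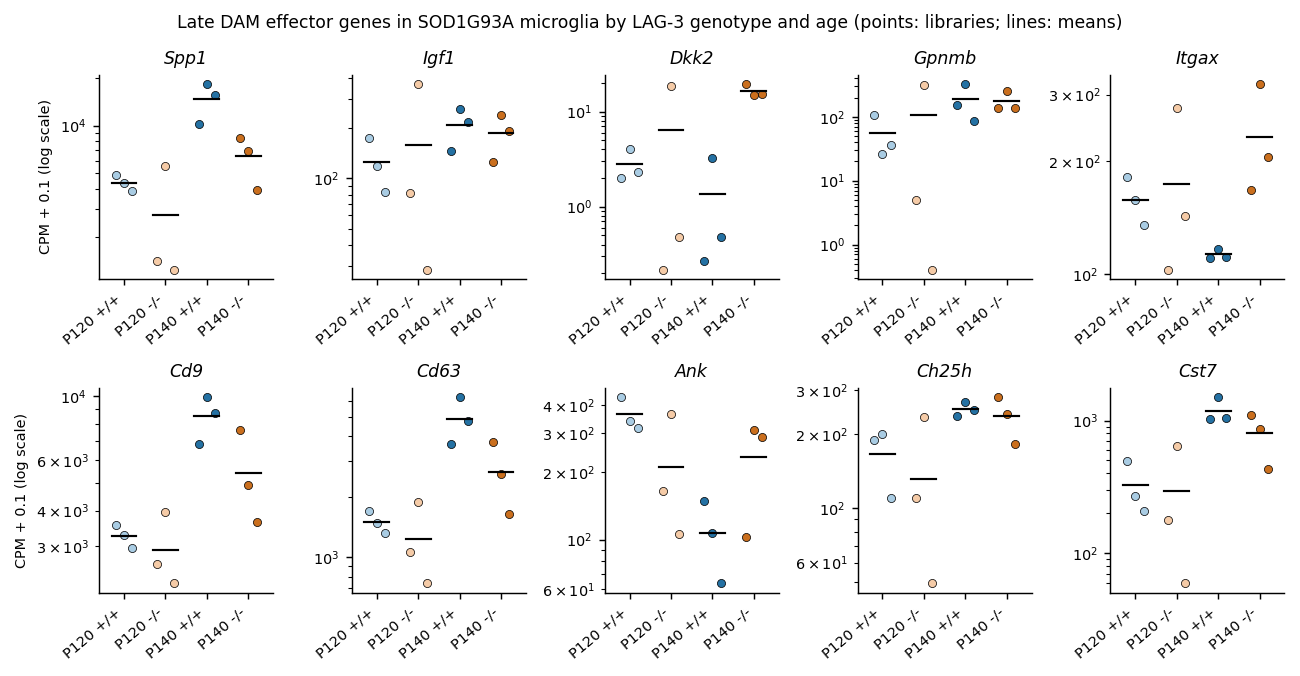
Level of each gene in SOD1G93A microglia of LAG-3+/+ (blue) and LAG-3-/- (orange) mice at P120 (light) and P140 (dark), in CPM plus 0.1 on a log axis; points are the 3 libraries per group and lines are group means. *Spp1*, *Cd9* and *Cd63* are higher at P140 than at P120 in LAG-3+/+ microglia, *Ank* is lower, and 1 of the 3 P120 LAG-3-/- libraries lies far above the other 2 for most genes.

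The stage experiment asked how the genes change from the early (P120) to the late symptomatic stage (P140) and whether that depends on LAG-3. Genes were called here at an adjusted p under 0.1 without a minimum fold change. In LAG-3+/+ microglia 4 members were higher at P140, *Cst7*, *Spp1*, *Cd63* and *Cd9*, against 11.9% of the 18669 genes tested, and 1 was lower, *Ank*, against 15.5%. Of the 9 microglial genes 7 were also called higher and 1 lower. Their median log2 fold change was 1.27, beside 1.06 for the 10 members. The summed level of 7 border macrophage genes was 2.53 to 18.4 CPM at P120 and 111 to 143 CPM at P140 in the same LAG-3+/+ libraries, with 1 gene at 0 in all 3 P140 libraries and 1 of the 5 tested called higher. In LAG-3-/- libraries this sum was 0.581 to 65.0 CPM at P120 (median 1.83 CPM) and 44.9 to 120 CPM at P140. Its part in the result was not tested. In 5 members each P140 library was above each P120 library (16.8% of all genes tested) and in 2 below (25.4%). In LAG-3-/- microglia none of the members and none of all genes tested (0%) were called by edgeR, while 3 members and 1658 genes had an unadjusted p under 0.05, and DESeq2 called 449 genes and none of the members. Whether the stage change differed between the genotypes was tested as their interaction, in which none of the members was called by edgeR or DESeq2. Over all genes tested edgeR called 0.171% and DESeq2 1301 genes. An unadjusted p under 0.05 was found for 1 member and 2541 genes.

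*Spp1* was at 4876, 4378 and 3857 CPM at P120 and at 10248, 18329 and 15487 CPM at P140 in LAG-3+/+ microglia (log2 fold change 1.75, SE 0.52, edgeR adjusted p = 0.0395). In LAG-3-/- microglia it was at 1406, 5579 and 1232 CPM and then at 8345, 6936 and 3940 CPM, and the stages overlapped (log2 fold change 1.23, SE 0.52, edgeR adjusted p = 0.547). The interaction was -0.52 (SE 0.72, edgeR adjusted p = 0.813), and without P120 LAG-3-/- replicate 2, the library at 5579 CPM, it was 0.54 (edgeR adjusted p = 0.663). *Igf1* went from 174, 118 and 82.2 CPM to 145, 262 and 218 CPM in LAG-3+/+ and from 81.6, 369 and 28.1 CPM to 126, 240 and 192 CPM in LAG-3-/- microglia. Its stages overlapped in both genotypes (edgeR adjusted p = 0.503 and 0.978). *Dkk2* was at 1.91, 3.9 and 2.23 CPM at P120 and at 0.166, 3.18 and 0.384 CPM at P140 in LAG-3+/+ microglia, and at 0.116, 18.3 and 0.376 CPM and 19.5, 14.8 and 15.1 CPM in LAG-3-/- microglia. The stages overlapped in both genotypes, through a single P120 library in the LAG-3-/- mice, and neither log2 fold change was called (-1.12 and 1.40, edgeR adjusted p = 0.650 and 0.879). In LAG-3+/+ microglia it ran from -3.27 (without P140 replicate 2) to -0.60 (without P140 replicate 1). Without P120 LAG-3-/- replicate 2, the stage changes of LAG-3-/- microglia were 6.05 for *Dkk2*, 6.08 for *Gpnmb* (0.73 with it), 2.28 for *Spp1*, 2.76 for *Cst7* (1.45), 1.76 for *Igf1* (0.22), 1.57 for *Ch25h* (0.84) and 0.78 for *Ank*. None was called by edgeR (adjusted p = 0.118 to 0.656), and the interaction of *Dkk2* went from 2.52 to 7.17 (edgeR adjusted p = 0.329).

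*Cd9* rose from 3563, 3279 and 2973 CPM to 6813, 9910 and 8751 CPM in LAG-3+/+ microglia (log2 fold change 1.38, SE 0.29, edgeR adjusted p = 0.0105), and *Cd63* from 1696, 1477 and 1325 CPM to 3658, 6246 and 4754 CPM (log2 fold change 1.70, SE 0.37, edgeR adjusted p = 0.0117). In LAG-3-/- microglia the log2 fold changes were 0.88 and 1.11 (SE 0.29 and 0.37, edgeR adjusted p = 0.475 and 0.481), and the stages overlapped. *Cst7* rose in LAG-3+/+ microglia from 496, 269 and 207 CPM to 1019, 1500 and 1046 CPM (log2 fold change 1.87, SE 0.70, edgeR adjusted p = 0.0846), a call that was lost without any 1 of 8 of the 12 libraries (highest edgeR adjusted p = 0.228) and with sex as a covariate (0.101). *Spp1* lost its call without P120 LAG-3+/+ replicate 2 or 3 or P140 LAG-3+/+ replicate 2 (edgeR adjusted p = 0.109 to 0.124). *Gpnmb* was the most variable member, at 108, 26.5 and 35.6 CPM and 152, 328 and 87.3 CPM in LAG-3+/+ and at 4.83, 310 and 0.301 CPM and 135, 252 and 135 CPM in LAG-3-/- microglia. Its SE of 1.51 left a log2 fold change of 1.74 in LAG-3+/+ microglia uncalled (edgeR adjusted p = 0.461). *Ch25h* was at 110 to 199 CPM at P120 and 235 to 269 CPM at P140 in LAG-3+/+ microglia, without overlap and without a call (log2 fold change 0.60, SE 0.44, edgeR adjusted p = 0.381).

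*Ank* and *Itgax* went the other way in LAG-3+/+ microglia. *Ank* fell from 434, 341 and 316 CPM to 149, 107 and 63.6 CPM (log2 fold change -1.77, SE 0.51, edgeR adjusted p = 0.0346), a call lost without P140 LAG-3+/+ replicate 3 (-1.51, edgeR adjusted p = 0.115). In LAG-3-/- microglia it was at 165, 364 and 106 CPM and at 102, 309 and 288 CPM, with a log2 fold change of 0.14 (SE 0.50, edgeR adjusted p = 0.981). Of the members it had the interaction with the smallest p, at 1.91 (SE 0.71, edgeR adjusted p = 0.281), and was called in it only without P140 LAG-3-/- replicate 1 among the alternatives run (2.27, edgeR adjusted p = 0.0746). *Itgax* was at 181, 157 and 135 CPM at P120 and at 111, 117 and 111 CPM at P140 in LAG-3+/+ microglia, without overlap but not called (log2 fold change -0.48, SE 0.34, edgeR adjusted p = 0.350), and at 103, 276 and 143 CPM and 168, 320 and 204 CPM in LAG-3-/- microglia. Its interaction was 0.89 (SE 0.48, edgeR adjusted p = 0.440). Over the 12 libraries *Ank* and *Itgax* followed the mean of the standardized members least (r = 0.150 and 0.446), *Gpnmb* and *Ch25h* most (r = 0.974 and 0.946). The 5 genes outside the set with the most similar pattern were *Rps6*, *Sh3bgrl*, *Fabp5*, *Hcar2* and *Gla* (r = 0.966, 0.957, 0.957, 0.950 and 0.949, of 8662 genes; not tested).

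The stage change moved with transcript length, and its part in the result was tested only as an offset. The canonical transcripts of the 4 members that rose in LAG-3+/+ microglia are 1037 (*Cst7*), 1271 (*Cd9*), 1382 (*Cd63*) and 2229 bases (*Spp1*) long, and those of the members with negative log2 fold changes are 3715 (*Dkk2*), 4097 (*Itgax*) and 7417 bases (*Ank*). *Ch25h* (1387 bases), *Gpnmb* (3824) and *Igf1* (7073) were positive and not called. Over all genes tested, the median log2 fold change was 0.18 for transcripts of up to 1500 bases, 0.30 for over 1500 and up to 3000 bases and -0.86 for longer ones. With an offset for length and GC content in each library, *Ank* was not called (log2 fold change -0.56, edgeR adjusted p = 0.40), *Itgax* turned to 0.37 (edgeR adjusted p = 0.492) and *Igf1* was called higher (2.0, edgeR adjusted p = 0.0881), whereas *Cst7*, *Cd9*, *Cd63* and *Spp1* kept log2 fold changes of 1.99, 1.37, 1.68 and 1.64 and their calls. Scaling to the 9 microglial genes, whose sum was 31639 to 38267 CPM at P120 and 61161 to 79919 CPM at P140, moved all genes by a median of -1.01; *Cd9*, *Cd63* and *Ank* stayed called (0.34, 0.66 and -2.74), *Itgax* was called lower (-1.49, edgeR adjusted p = 0.0195), and *Spp1* and *Cst7* were not called (0.70 and 0.87).

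**Figure D3:**
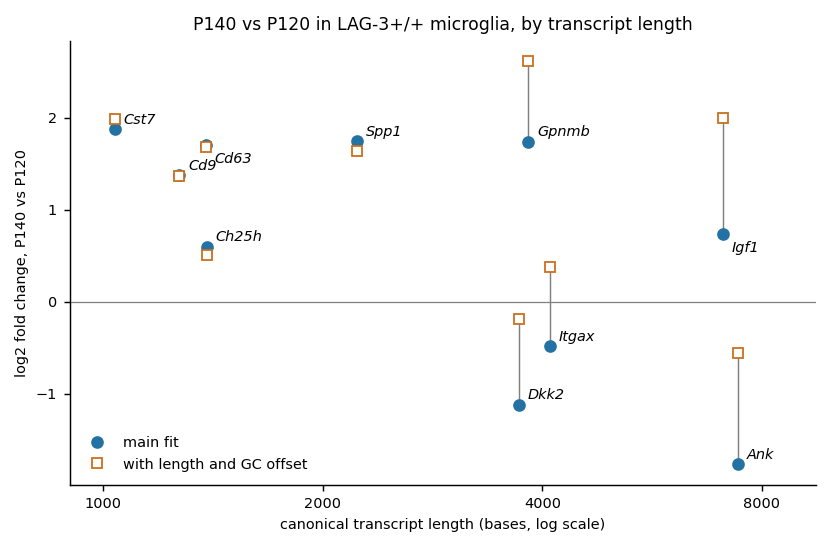
log2 fold change from P120 to P140 in LAG-3+/+ microglia against canonical transcript length (bases, log axis) for the 10 genes; filled circles are the values of the main fit, open squares those with an offset for transcript length and GC content. Circles below 0 belong to 3 genes over 3000 bases, of which *Itgax* lies above 0 with the offset, and for *Spp1* and the shorter genes both symbols lie close together (1.75 and 1.64 for *Spp1*).

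Between the genotypes at P120, none of the 10 genes was called by edgeR, none had an unadjusted p under 0.05 and DESeq2 called none; edgeR called 0.0107% of all genes tested, of which *Lag3* was one. The log2 fold changes (LAG-3-/- against LAG-3+/+) ran from -0.78 for *Ank* to 1.22 for *Dkk2*, each with overlapping groups. Replicate 2 of the LAG-3-/- microglia decided several of these values. Without it *Gpnmb* went from 0.89 to -4.46, *Dkk2* from 1.22 to -3.43, *Igf1* from 0.36 to -1.18 and *Itgax* from 0.14 to -0.36, again without a call.

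At P140 the log2 fold changes between the genotypes lay on both sides of 0. Again none of the members was called by edgeR, against 10.2% of all genes tested. An unadjusted p under 0.05 was found for 6 members and for 4495 of the 18669 genes tested. DESeq2 called 4 members, *Itgax* higher and *Spp1*, *Cd9* and *Cd63* lower in LAG-3-/- microglia, and 4281 of all genes. *Itgax* was at 168, 320 and 204 CPM in LAG-3-/- against 111, 117 and 111 CPM in LAG-3+/+ microglia (log2 fold change 1.03, SE 0.34, edgeR adjusted p = 0.104), and *Dkk2* at 19.5, 14.8 and 15.1 CPM against 0.166, 3.18 and 0.384 CPM (log2 fold change 3.74, SE 1.61, edgeR adjusted p = 0.187). For both, each LAG-3-/- library was above each LAG-3+/+ library, as for 12.2% of all genes tested. *Spp1*, at 8345, 6936 and 3940 CPM against 10248, 18329 and 15487 CPM, was below in each LAG-3-/- library (log2 fold change -1.2, SE 0.52, edgeR adjusted p = 0.187), as were 8.92% of all genes tested.
*Cd63* and *Cd9* had log2 fold changes of -0.88 and -0.65 (SE 0.36 and 0.28, edgeR adjusted p = 0.172 and 0.191) with overlap through LAG-3-/- replicate 1, at 3726 and 7640 CPM. *Ank* was at 102, 309 and 288 CPM against 149, 107 and 63.6 CPM (log2 fold change 1.13, SE 0.50, edgeR adjusted p = 0.20), with the same library, at 102 CPM, inside the LAG-3+/+ range. Without that library 4 members were called. *Itgax* (1.22) and *Ank* (1.49) were higher and *Cd9* (-0.99) and *Cd63* (-1.21) lower, with edgeR adjusted p of 0.0470, 0.0607, 0.0300 and 0.0621. The calls over all genes rose as well in that fit, to 4139 genes from 1908 in the main fit. Without P120 LAG-3-/- replicate 2, which enters this comparison through the shared error, *Itgax*, *Dkk2* and *Spp1* were called (edgeR adjusted p = 0.0656, 0.0898 and 0.0633). Transcript length also moved with the genotype. All genes tested had a median log2 fold change of -0.18 for transcripts of up to 1500 bases and of 0.64 for those over 3000 bases, and with the length and GC offset *Itgax* and *Ank* had log2 fold changes of 0.33 and 0.17. *Gpnmb*, *Igf1*, *Ch25h* and *Cst7* overlapped between the genotypes, with log2 fold changes of -0.57 to -0.10. The P140 LAG-3+/+ libraries enter this comparison and the stage comparison of LAG-3+/+ microglia, so the values of both share them.

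In the whole lumbar cord at P140, 5 members were lower in LAG-3-/- than in LAG-3+/+ mice, against 3.15% of the 17702 genes tested that were called lower: *Gpnmb*, *Dkk2*, *Itgax*, *Igf1* and *Cst7*, and none was higher (4.37%). In tissue, fewer cells of a type and less RNA per cell cannot be told apart. *Gpnmb* was at 220, 130 and 172 CPM in LAG-3+/+ and at 61.9, 35.3 and 49.6 CPM in LAG-3-/- cord (log2 fold change -1.83, SE 0.25, edgeR adjusted p = 0.00115). *Itgax* was at 103, 64.8 and 81.9 CPM against 40.8, 22.1 and 37.0 CPM (log2 fold change -1.33, SE 0.26, edgeR adjusted p = 0.00629). Neither gene's groups overlapped, as for 26.1% of all genes tested that lay below in each LAG-3-/- library. In the sorted P140 microglia the log2 fold change of *Itgax* had been 1.03 and not called; the 2 experiments were not compared by a test.

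**Figure D4:**
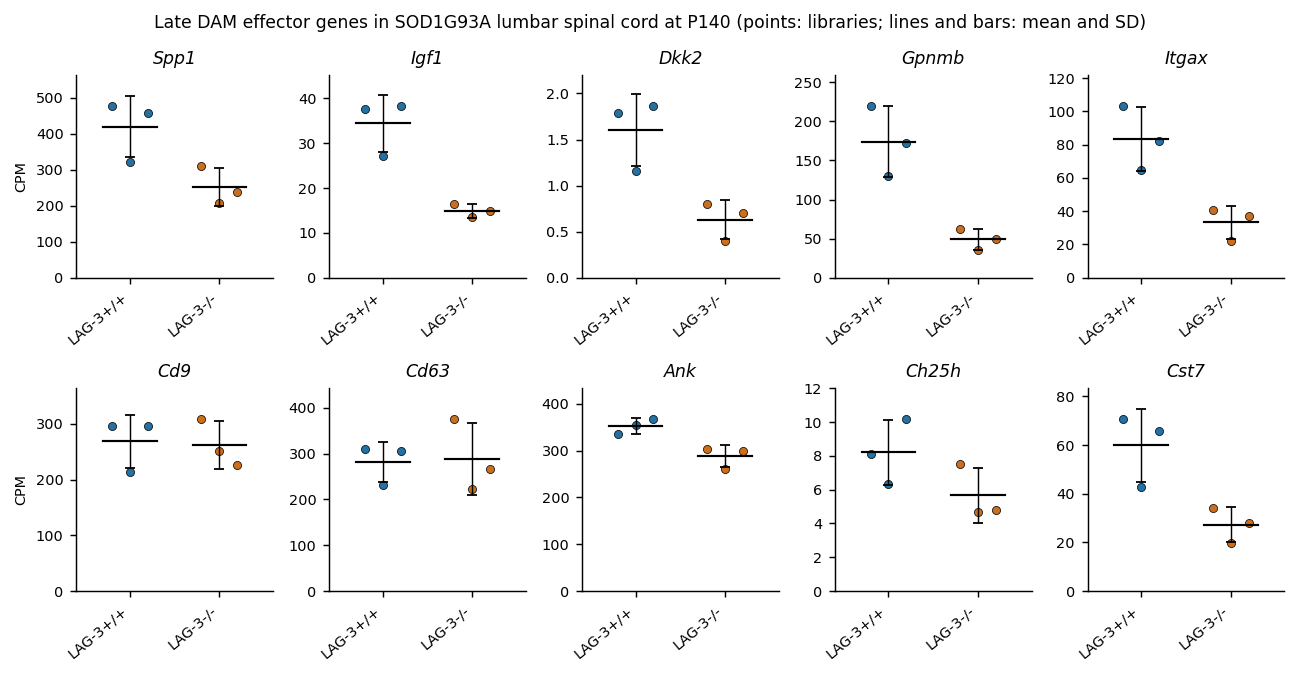
Level of each gene in whole lumbar spinal cord of SOD1G93A mice at P140, in CPM on a linear axis from 0; points are the 3 libraries per genotype, lines and bars the mean and SD. LAG-3-/- libraries lie below LAG-3+/+ libraries for *Spp1*, *Igf1*, *Dkk2*, *Gpnmb*, *Itgax*, *Ank* and *Cst7*, and the genotypes overlap for *Cd9*, *Cd63* and *Ch25h*.

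*Igf1* was at 37.7, 27.2 and 38.4 CPM in LAG-3+/+ and 16.4, 13.5 and 14.8 CPM in LAG-3-/- cord (log2 fold change -1.21, SE 0.15, edgeR adjusted p = 0.000323), and *Cst7* at 70.8, 42.9 and 66.0 CPM against 34.0, 19.6 and 28.1 CPM (log2 fold change -1.14, SE 0.24, edgeR adjusted p = 0.00831). *Dkk2* was near the lower end of detection, at 1.79, 1.16 and 1.87 CPM against 0.799, 0.394 and 0.699 CPM (log2 fold change -1.38, SE 0.36, edgeR adjusted p = 0.0113). These 5 genes include the 4 whose promoter stretches are printed above, of which *Igf1* and *Itgax* were not called between the sorted fractions. No link between those letters and the calls was tested. *Spp1* was lower in each LAG-3-/- library, at 310, 207 and 239 CPM against 479, 323 and 458 CPM, with an edgeR adjusted p of 0.00999 and a log2 fold change of -0.74 (SE 0.18) that is below the minimum. *Ank* (-0.29, SE 0.12, edgeR adjusted p = 0.0673) and *Ch25h* (-0.55, SE 0.23, edgeR adjusted p = 0.0863) likewise passed the adjusted p alone. Of all 17702 genes tested, 8330 passed the adjusted p, with or without the minimum fold change. The mean of *Ank* was 352 CPM in LAG-3+/+ cord, above its mean of 107 CPM in sorted P140 LAG-3+/+ microglia. The part of other cord cells in the cord level of *Ank* was not tested, so its cord value is not one of microglia alone. The tetraspanins overlapped, with log2 fold changes of -0.04 for *Cd9* and 0.03 for *Cd63* (SE 0.16 and 0.19, edgeR adjusted p = 0.874 and 0.914). Per length, *Cd9* and *Cd63* were the highest members in the cord, with 211 ± 37.2 and 204 ± 31.7 FPKM (SD, n = 3) in LAG-3+/+ mice, followed by *Spp1* with 188 ± 38.0 FPKM, and the ranges of these neighbours overlapped over the libraries, although the order held within each of the 3.

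The summed level of the 9 microglial genes was 1633 to 2315 CPM in LAG-3+/+ and 1346 to 2085 CPM in LAG-3-/- cord, with a median log2 fold change of -0.11 and none of the 9 called. Of these, *Ctss*, *Cd53* and *Laptm5* passed the adjusted p alone (-0.55, -0.57 and -0.44, edgeR adjusted p = 0.0260, 0.0374 and 0.0584). The adjusted p was passed by 8330 of all 17702 genes tested. Scaled to these genes, all genes tested moved by a median of 0.29, *Gpnmb*, *Dkk2* and *Itgax* stayed called, and *Igf1* and *Cst7* had log2 fold changes of -0.91 and -0.86, under the minimum. Of 5 oligodendrocyte genes the sum was 15165 to 16473 CPM in LAG-3+/+ and 21491 to 29662 CPM in LAG-3-/- cord. The sums of 5 monocyte genes were 46.1 to 54.3 and 26.6 to 30.6 CPM and those of 5 endothelial and mural genes 205 to 231 and 168 to 172 CPM, in the same order, with none called. The part of these cells in the result was not tested. Over all genes tested the median log2 fold change was 0.52 for transcripts of up to 1500 bases and -0.23 for those over 3000 bases. With the length and GC offset, *Gpnmb*, *Dkk2*, *Itgax* and *Cst7* stayed called (-1.73, -1.23, -1.23 and -1.63), *Igf1* did not (-0.67), *Ch25h* was at -0.98, *Cd63* at -0.53 and *Ank* at 0.19. Leaving out each of the 6 libraries in turn gave 4 or 5 called members; the call lost was *Cst7*, without LAG-3-/- replicate 2 (-0.95).

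**Figure D5:**
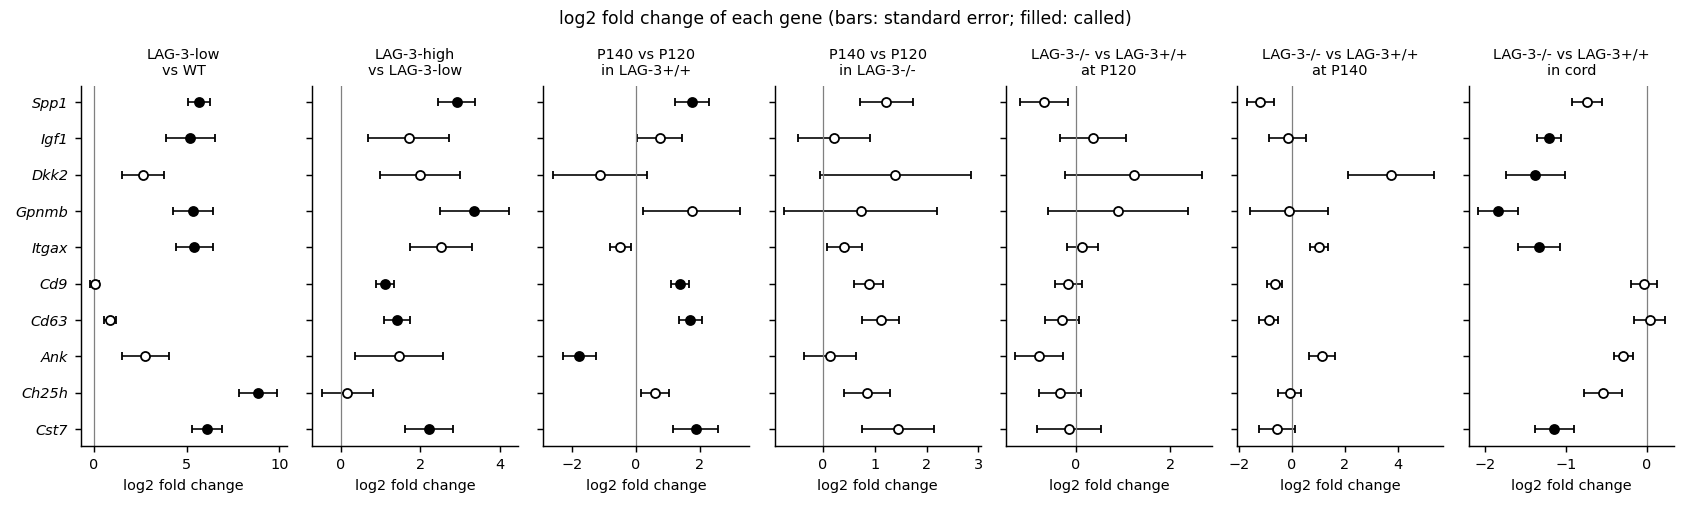
log2 fold change of each gene in 7 comparisons, with its standard error as a bar; filled points passed the calling rule of that comparison (adjusted p under 0.1, and in the sorted and cord tables a log2 fold change beyond 1). The points of the LAG-3-low panel spread from 0.05 (*Cd9*) to 8.85 (*Ch25h*), those of the P140 genotype panel lie on both sides of 0, and those of the cord panel lie at or below 0.03.

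Other genes of the same pathways were read from a list of 54 receptors, binding partners, targets and relatives of the members. Of its 47 genes tested in the sorted table, 7 were higher and 3 lower in the LAG-3-low fraction against WT, where 10.9% and 11.0% of all genes tested were. Against the same WT libraries, 17 were higher and 5 lower in the LAG-3-high fraction (12.1% and 14.9% of all genes tested), and between the fractions 2 were higher and 1 was lower (0.818% and 2.67%). The osteopontin receptor chain *Itgb5* was lower in the LAG-3-low fraction (116 ± 12.6 CPM, SD, n = 5) than in WT (613 ± 243 CPM, SD, n = 4; log2 fold change -2.40, edgeR adjusted p = 0.000140), as was *Cst3*, which encodes the secreted inhibitor cystatin C (log2 fold change -2.51, edgeR adjusted p = 0.000360). *Lgmn*, a lysosomal cysteine protease, was higher (1.62, edgeR adjusted p = 0.00340). Against WT, LAG-3-high microglia had more *Abcg1*, an LXR target for cholesterol export (log2 fold change 2.63, edgeR adjusted p = 0.000440), and *Itgb2*, the CD18 partner of CD11c (1.29, edgeR adjusted p = 0.000451). Between the fractions *Abca1*, another LXR target, was at 387 ± 52.2 CPM in LAG-3-high and 179 ± 33.8 CPM in LAG-3-low microglia (SD, n = 5; log2 fold change 1.11, edgeR adjusted p = 0.00377), and *Ctsl*, a cysteine cathepsin, at 1821 ± 80.0 and 680 ± 89.2 CPM (1.42, edgeR adjusted p = 0.00528). *Ctsh*, an aminopeptidase among the cathepsins, had log2 fold changes of 0.95 against WT and 0.85 between the fractions, under the minimum fold change (edgeR adjusted p = 0.000460 and 0.00297).

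Of 47 partners tested in the stage experiment, 12 were higher and 14 lower at P140 than at P120 in LAG-3+/+ microglia, against 11.9% and 15.5% of all genes tested. *Itgav*, an osteopontin receptor chain, and *Itgam*, an integrin chain that pairs with CD18, fell (log2 fold changes -2.01 and -1.62, edgeR adjusted p = 0.00535 and 0.00547), and *Ctsc*, a cathepsin that activates serine proteases, rose (1.2, edgeR adjusted p = 0.00561). At P140, 8 partners were higher and 4 lower in LAG-3-/- than in LAG-3+/+ microglia, against 7.22% and 3.0% of all genes tested. *Itgam* was at 648 ± 224 against 235 ± 27.9 CPM (SD, n = 3; log2 fold change 1.46, edgeR adjusted p = 0.0217), *Itgav* at 88.9 ± 31.3 against 35.4 ± 7.11 CPM (1.33, edgeR adjusted p = 0.0411), and *Hsd3b7*, an enzyme of oxysterol breakdown, at 42.4 ± 4.68 against 89.5 ± 29.7 CPM (-1.08, edgeR adjusted p = 0.0431). *Itgb5* was the only partner called in the interaction (3.78, SE 0.63, edgeR adjusted p = 0.0908), where edgeR called no gene at all with the replicate block, with sex as a covariate or without any 1 of 7 of the 12 libraries. It went from 1717 ± 672 to 281 ± 67.5 CPM between the stages in LAG-3+/+ and from 194 ± 44.4 to 436 ± 291 CPM in LAG-3-/- microglia (SD, n = 3). No partner was called at P120 between the genotypes or between the stages in LAG-3-/- microglia. In those 2 comparisons *Itgb5* (-3.14, edgeR adjusted p = 0.107) and *Sdcbp*, which binds CD63 in exosome formation (0.85, edgeR adjusted p = 0.475), had the smallest adjusted p.

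In the cord 4 of 54 partners were lower and none was higher in LAG-3-/- mice (3.15% and 4.37% of all genes tested). *Igfbp5*, a binding protein of IGF1, was at 183 ± 3.52 against 444 ± 59.7 CPM (SD, n = 3; log2 fold change -1.28, edgeR adjusted p = 0.000164). *Lrp6*, the receptor of DKK2, and *Igf1r*, the receptor of IGF1, were at -0.76 and -0.71 on the log2 scale (edgeR adjusted p = 0.000327 and 0.000422), under the minimum.

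A second list held 24 DAM genes outside the set, such as *Trem2*, *Apoe*, *Lpl* and *Clec7a*. Of these, 16 were called higher in the LAG-3-low and 19 in the LAG-3-high fraction against WT, and 9 between the fractions, with none lower. The shares called higher of all genes tested were 10.9%, 12.1% and 0.818%. In LAG-3+/+ microglia 14 were higher and 4 lower at P140 than at P120 (11.9% and 15.5% of all genes tested). At P140 1 was higher and 2 were lower in LAG-3-/- than in LAG-3+/+ microglia (7.22% and 3.0%), and in the cord none was higher and 2 were lower (4.37% and 3.15%). Of 9 homeostatic genes, 8 were lower in each sorted fraction than in WT microglia (11.0% and 14.9% of all genes tested, for low and high LAG-3), and 1 was lower in the LAG-3-high than in the LAG-3-low fraction (2.67%). From P120 to P140 in LAG-3+/+ microglia 2 were higher, *Olfml3* and *Gpr34* (log2 fold changes 1.07 and 1.06, edgeR adjusted p = 0.0170 and 0.0386), and 1 lower, *Sall1* (-1.71, edgeR adjusted p = 0.00751), with a median of 0.61 over the 9. *Sall1* was also the 1 homeostatic gene called higher in LAG-3-/- microglia at P140 (1.12, edgeR adjusted p = 0.0705), and in the cord none was called.

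*Cd9* lies 548445 bases from *Lag3* on chromosome 6 (GRCm39), so that the disrupted allele and *Cd9* are linked. *Cd9* was not called by edgeR in any of the 3 genotype comparisons, while DESeq2 called it lower at P140 (log2 fold change -0.74, DESeq2 adjusted p = 0.0772). Of the 64 genes tested within 1 Mb of *Lag3* in the stage table, 0 were called at P120 and 2 (3.13%) at P140, where 10.2% of all genes tested were. Of the 44 tested in the cord table, 1 (2.27%) was called, against 7.52% of all genes tested, and 21 passed the adjusted p alone or with the minimum fold change, as did 8330 of all 17702 genes tested.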

How the data were processed

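Microglia from lumbar spinal cord (full-length cDNA libraries) and whole lumbar cord (stranded libraries) were sequenced. The deposited values are estimated counts per gene, which the authors made with Trim Galore 0.6.7, Salmon 1.9.0 against GRCm39 and tximport in R 4.2.1; the annotation release and tximport's scaling are not given in the sources used here. They were rounded to whole numbers. Each table was fitted on its own with all its groups in edgeR 4.0.16 (R 4.3.3; filterByExpr with a minimum count of 10 and a minimum total of 15, TMM, robust quasi-likelihood F-test, Benjamini-Hochberg adjustment). SE is the absolute log2 fold change divided by the square root of F. The rule for a call was an adjusted p under 0.1 and, in the sorted and cord tables, an absolute log2 fold change over 1. Groups were taken from the labels. The members, lists and tests were chosen with earlier results of these data known. The genes named were the 10 members, *Lag3*, the 3 partners with the smallest adjusted p per comparison and the 5 genes most like the members' mean pattern. The microglial list was used without 1 of its genes, which is not reported here. FPKM used the canonical transcript length of GENCODE vM39.

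Totals were 9403475 to 49512632 counts in the microglia and 19430102 to 26994524 in the cord; floors of 3 counts cover counting error only. The common dispersion was 0.691, 0.603 and 0.0247 in the sorted, stage and cord tables. On simulated counts with 200 changed genes, 35% and 63% of genes changed by 2 and 4 on the log2 scale were recovered for the 2 sorted fractions (16508 genes), 40% and 76% for the P140 genotypes (18669 genes) and 98% and 98% for the cord (17702 genes).

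Alternatives were DESeq2 1.42.0, other scalings (RLE, library totals, 9 microglial genes), no filter on low counts, a replicate block, sex as a covariate, an offset for length and GC content, fits restricted to the groups in question, changed thresholds, and leaving out each library. DESeq2 gave no adjusted p for *Igf1* and *Itgax* in the sorted table and for *Dkk2* in the stage table.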

Additional observations from a re-analysis of the deposited data

Results flagged for a closer look

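Over the 10 members and *Lag3* in the groups of 4 or 5 libraries, in 4 of 33 combinations 1 library lay far from the others by Dixon's test at the 95% level. The test assumes normal values, for which chance does so in about 1 of 20. That rate does not apply to WT levels at or near 0. Where all other libraries are at 0, as for *Ch25h*, any count is flagged. *Igf1* was at 15.3 CPM in WT replicate 3, with the nearest WT library at 0.102 CPM. *Ch25h* was at 1.41 CPM in the same library and had 0 counts in the other WT libraries. *Dkk2* was at 3.04 CPM in WT replicate 4, with the nearest at 0.282 CPM. *Cst7* was at 167 CPM in LAG-3-low replicate 4, with the nearest at 326 CPM.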

How the results depend on the processing

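Of 1949 values of single genes under the alternatives run, 1787 kept their direction and their side of the threshold, 58 lost a call, 40 gained one and 64 changed sign. The cause of these changes was not tested. Microglia libraries of one group varied widely (common dispersion 0.691 and 0.603, against 0.0247 in the cord), and in the simulation fewer changes were recovered there.

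Brackets hold the calls over all genes in the same fit. Of the 10 members, 5 were called between the sorted fractions (576 of 16508 genes tested). The count was 1 with the replicate block (179), 3 with library totals (663) and 3 with no filter (488). At an adjusted p under 0.05 it was 3 (416). It was 2 with microglial scaling (3512), 8 with only the groups compared (1450) and 3 to 7 without single libraries (370 to 910). From P120 to P140 in LAG-3+/+ microglia the count of 5 (5118 of 18669) was 3 with no filter (3903). It was 3 to 5 without single libraries (3218 to 5598). For the P140 genotypes the count of 0 (1908) was 4 with DESeq2 (4281), 1 with library totals (2290) and 1 with no filter (1386). It was 2 with microglial scaling (3296) and 0 to 4 without single libraries (95 to 4139). The interaction had 0 to 1 without single libraries (0 to 1713). In the cord the count of 5 (1331 of 17702) was 3 with microglial scaling (1988) and 8 with no minimum fold change (8330).

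Between the sorted fractions, the deviations of same-numbered libraries had a mean r of 0.0323, beside -0.00808 for other numbers. Of these libraries 3 of 5 correlated best with their own number. Between the P140 genotypes the mean r was -0.0660, and 0 of 3 correlated best with their own number. Whether the numbers pair samples cannot be told from these values. With the replicate block, 1 member was called between the sorted fractions, the P120 genotype values of *Igf1*, *Dkk2* and *Gpnmb* were -0.11, -0.80 and -1.04, that of *Gpnmb* at P140 was 0.17 and its interaction 1.21.

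Signs also changed as follows, in log2 fold changes. With library totals, *Ch25h* was at -0.21 between the fractions, *Ank* at -0.040 between stages in LAG-3-/- microglia, *Igf1*, *Gpnmb* and *Ch25h* at 0.20, 0.23 and 0.21 between the P140 genotypes and *Cd63* at -0.11 in the cord. With microglial scaling, *Ch25h* was at -0.80 between the fractions; *Igf1* and *Ch25h* at -0.28 and -0.40 between stages in LAG-3+/+; *Igf1*, *Itgax* and *Ank* at -0.17, -0.079 and -0.23 in LAG-3-/-; *Cd9* and *Cst7* at 0.019 and 0.0084 at P120; *Igf1*, *Gpnmb* and *Ch25h* at 0.61, 0.60 and 0.53 at P140; *Igf1* at 0.11 in the interaction; *Cd9* at 0.26 in the cord. With the length and GC offset, *Cd9* and *Cd63* were at -0.18 and -0.11 in LAG-3-low against WT, *Itgax* at 0.37 between stages in LAG-3+/+, and *Cd63* and *Ank* at -0.53 and 0.19 in the cord. With sex as a covariate *Gpnmb* was at 0.34 at P140, and with no filter *Cd63* was at -0.0051 in the cord.

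Without single libraries, signs changed within these ranges. *Cd9* in LAG-3-low against WT ran from -0.14 to 0.26. Between stages in LAG-3-/-, *Igf1* ran from -0.27 to 1.76 and *Ank* from -0.18 to 0.78. At P120, *Igf1* ran from -1.18 to 0.85, *Dkk2* from -3.43 to 1.79, *Gpnmb* from -4.46 to 1.75, *Itgax* from -0.36 to 0.40, *Ch25h* from -1.07 to 0.044 and *Cst7* from -1.45 to 0.34. At P140, *Igf1* ran from -0.44 to 0.055, *Gpnmb* from -0.53 to 0.54 and *Ch25h* from -0.24 to 0.061. In the interaction, *Spp1* ran from -0.86 to 0.54, *Igf1* from -1.01 to 1.02, *Gpnmb* from -1.87 to 4.34, *Ch25h* from -0.14 to 0.97 and *Cst7* from -0.90 to 0.89. In the cord, *Cd9* ran from -0.18 to 0.039 and *Cd63* from -0.21 to 0.19.

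Counts over all genes moved as well. The 576 calls between the fractions were 988 with DESeq2, 179 with the block, 3512 with microglial scaling and 1450 with only the groups compared. The 3614 calls of LAG-3-low against WT were 1563 with the block, 5488 with the offset and 1721 with only the groups compared, and the 4464 of LAG-3-high were 2577 with the block and 2663 with only the groups compared. Between stages in LAG-3-/- the 0 calls were 449 with DESeq2. The 2 calls at P120 were 134 with DESeq2, 4 with library totals, 7 with no filter, 31 with only the groups compared and 1 with the block, with sex or at 0.05. The 1908 calls at P140 were 4281 with DESeq2, 814 with the block, 3296 with microglial scaling, 0 with only the groups compared, 642 at 0.05 and 95 (without LAG-3-/- replicate 2 of that stage) to 4139 (without replicate 1) without single libraries. The 32 interaction calls were 1301 with DESeq2, 14 with RLE, 179 with no filter, 0 with the block or sex, 9 with the offset or microglial scaling, 8 at 0.05 and 0 to 1713 without single libraries. The 1331 cord calls were 827 with the offset and 8330 with no minimum fold change. The share of calls that were higher went, from TMM to microglial scaling, from 23.4% to 0.911% between the fractions, 49.6% to 70.7% and 44.8% to 22.1% for LAG-3-low and LAG-3-high against WT, 43.4% to 2.57% between stages in LAG-3+/+, 70.6% to 98.1% at P140 and 58.1% to 88.2% in the cord. With library totals it was 5.28%, 53.7%, 31.6%, 19.1%, 89.3% and 36.8% in the same order.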
